A study of Mus musculus with 2 samples.

Results

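The genes of the cytosolic ribosomal proteins were examined for H3K4me3, a histone mark of active transcript starts, in group 2 innate lymphoid cells (ILC2s) of the mouse lung. The genes were chosen by name alone, as GENCODE protein-coding genes on the autosomes with the symbol of a protein of the small (Rps) or large (Rpl) subunit. The rule gave 76 genes of 20807 protein-coding genes on the 19 autosomes, 30 of the 40S and 46 of the 60S subunit. They lay on 18 autosomes, with at most 14 on one chromosome, chromosome 7.

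The mark was profiled by CATCH-seq, which precipitates native chromatin cut by micrococcal nuclease and is made for low inputs, in about 3000 sorted lung ILC2s from wild-type C57BL/6J offspring labelled 8 weeks old. In the OVA-mother group the mothers had been sensitised as females of 6 to 8 weeks with 100 µg of ovalbumin (OVA) in 25 µL of alum on days -21 and -7, and had then received 500 µg of OVA intranasally, repeatedly, between gestation days 4 and 17. In the PBS-mother group the mothers received PBS with 25 µL of alum and then intranasal PBS on the same days, and in both groups the fathers were untreated. Each group had 1 library, named here the PBS-mother and the OVA-mother library after the treatment of the mothers, and the study's panels of these data drew on a single dam per group. No value therefore has a replicate, nothing was tested between the groups, and treatment, dam and library cannot be told apart. The PBS-mother list held 42126 peaks and the OVA-mother list 51610. Of 16 ILC2 markers, 13 had a peak within 1000 bp of a start in the PBS-mother list and 10 in the OVA-mother list. Icos, Klrg1 and Il13 had none in either list, and Gata3, Il5 and Il7r had none in the OVA-mother list. Of all autosomal coding genes with such a peak in the PBS-mother list, 17.9% had none in the OVA-mother list. None of the B cell, macrophage or fibroblast markers had such a peak in either list, and T cell markers had none and 1. Epithelial markers had 2 and 1 of 6, and endothelial markers 1 and 0 of 4.

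Ribosomal proteins form the small 40S and large 60S subunits together with ribosomal RNA, and almost every protein is needed in one copy per ribosome. Their genes are transcribed in all cells from starts with a run of pyrimidines, so that the mRNA opens with a terminal oligopyrimidine (TOP) motif, which couples its translation to mTOR signalling. Many hold small nucleolar RNAs (snoRNAs) in their introns, and the mammalian genome carries many processed copies of them.

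The starts of 9 genes with a listed peak are shown first because a pyrimidine run at the start, the source of the TOP motif, is a feature that most members hold and the rule did not use. Each stretch runs from 60 bases before to 30 bases from a RefSeq start on (build GRCm38.p6), 5′ to 3′ in the direction of transcription. Capitals mark the longest run of at least 6 pyrimidines that opens with a C within 25 bp of that start. Where a gene had several RefSeq starts, the start with the longest such run is shown. The run of Rpl11 reaches the end of its stretch and may be longer. Rpl11 (chr4:136053364-136053453, minus strand) and Rpl34 (chr3:130730308-130730397, minus strand) were among the strongest peaks of the PBS-mother library. Rps9 (chr7:3703981-3704070, plus strand) and Rpl12 (chr2:32961652-32961741, plus strand) were the weakest. Rpl35 (chr2:39005102-39005191, minus strand) was listed in the PBS-mother library alone. Rpl15 (chr14:18270957-18271046, minus strand), Rpl38 (chr11:114668520-114668609, plus strand), Rps6 (chr4:86857338-86857427, minus strand) and Rps27 (chr3:90213619-90213708, minus strand) show runs that cover or touch the start base.
Rpl11: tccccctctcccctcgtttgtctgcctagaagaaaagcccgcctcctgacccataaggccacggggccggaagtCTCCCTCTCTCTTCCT
Rpl34: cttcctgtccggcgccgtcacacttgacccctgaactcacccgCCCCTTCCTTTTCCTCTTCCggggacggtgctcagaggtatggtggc
Rps9: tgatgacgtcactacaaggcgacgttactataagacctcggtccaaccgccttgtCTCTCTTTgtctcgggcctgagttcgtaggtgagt
Rpl12: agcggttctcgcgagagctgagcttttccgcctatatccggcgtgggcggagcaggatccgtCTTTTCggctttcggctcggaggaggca
Rpl35: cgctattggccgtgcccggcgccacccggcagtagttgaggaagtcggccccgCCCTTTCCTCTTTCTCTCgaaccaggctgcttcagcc
Rpl15: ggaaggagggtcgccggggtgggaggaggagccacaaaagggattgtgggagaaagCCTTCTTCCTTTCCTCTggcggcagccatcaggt
Rpl38: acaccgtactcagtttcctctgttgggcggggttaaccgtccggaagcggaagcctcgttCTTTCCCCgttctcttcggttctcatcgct
Rps6: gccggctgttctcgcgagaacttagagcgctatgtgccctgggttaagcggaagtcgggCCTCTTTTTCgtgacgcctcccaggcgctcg
Rps27: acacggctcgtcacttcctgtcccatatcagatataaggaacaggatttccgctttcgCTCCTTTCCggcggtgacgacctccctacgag

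The starts of the 3 genes without a peak in either list are given for comparison. Rpl3l (chr17:24727766-24727855, plus strand) and Rpl10l (chr12:66284372-66284461, minus strand) held no such run, and Rpl39l (chr16:10170168-10170257, plus strand) held one of 7 pyrimidines.
Rpl3l: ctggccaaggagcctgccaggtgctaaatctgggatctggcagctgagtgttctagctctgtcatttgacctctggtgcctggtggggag
Rpl10l: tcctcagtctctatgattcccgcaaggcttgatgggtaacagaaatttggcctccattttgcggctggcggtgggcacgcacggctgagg
Rpl39l: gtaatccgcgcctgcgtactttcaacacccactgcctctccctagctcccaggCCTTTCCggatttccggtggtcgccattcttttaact

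Across all members, 63 of 76 (82.9%, exact Clopper-Pearson 95% interval 72.5 to 90.6%) had a C within 10 bp of an annotated start followed by pyrimidines, at least 6 in all on the sense strand. Rpl11, Rpl15 and Rpl38 are not among them, since the runs shown above opened more than 10 bp from every start of the GENCODE annotation. Among all autosomal coding genes the share was 47.4%, and among those with a peak at a start in the PBS-mother library 55.5%. Of 16 other genes of TOP mRNAs, which encode mostly elongation and initiation factors, 13 held a run, against 42 of 78 mitochondrial ribosomal protein genes (53.8%). Members had a median of 6 annotated starts (1 to 14) against 3 over all genes, which gives more places for a run. With the principal start alone, that of the main coding transcript of the annotation, 30 members (39.5%) held one against 19.4% of all genes. The median number of fragments at the summit (solved from the fold and p of its peak) was 30 with and without a run in the PBS-mother library, and 17 and 18 in the OVA-mother library.

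Promoters from 250 bases before to 50 after the start were in the RefSeq table for 56 of the 76 members and 15687 coding genes. The letters CCGGAAG, a core of sites of ETS factors, were found on either strand in 24 of the 56 (42.9%, 29.7 to 56.8%), against 13.6% of all promoters and 22.3% of those of genes with a start peak in the PBS-mother library. They stood, for example, just before the pyrimidine run of Rpl11. GGGCGG, a core of Sp1 sites, was in 58.9% of the members' promoters, 51.7% of all and 71.6% of those with a start peak. AAGATGGC (YY1) was in 5 members (8.93%), against 3.63% of all promoters and 5.57% of those with a start peak. CACGTG (E-box) was in 6 (10.7%, against 9.22% and 12.1%) and CGCATGCG (NRF1) in 3 (5.36%, against 2.92% and 4.86%). TATAAA was in 4 (7.14%), against 14.4% of all promoters and 7.74% of those with a start peak. None of the 6 strings contains another. Within 500 bp of the principal start, members with a peak had a median of 57.5% GC and 0.821 CpG observed over expected, against 59.7% and 0.752 over all genes with a peak.

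A peak within 1000 bp of any annotated transcript start was called a start peak. In the PBS-mother library 73 of 76 members had one (96.1%, 88.9 to 99.2%), against 52.5% of all autosomal coding genes. Of the 76 members, 72 had one in the OVA-mother library (94.7%, 87.1 to 98.5%), against 43.7%. Each of the 30 genes of the 40S subunit had a start peak in both lists. In the 60S subunit 43 and 42 of 46 did. The mitochondrial ribosomal protein genes, which encode the proteins of the separate ribosome of that organelle, had one in 75 and 59 of 78 (96.2% and 75.6%). Members with start peaks held 99 of the 42126 peaks and 92 of the 51610.

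The 3 genes with no start peak in either list were Rpl3l, Rpl10l and Rpl39l, paralogs known for expression restricted to muscle (Rpl3l) or testis. Their nearest peaks in the PBS-mother library lay 3436, 8833 and 230533 bp from a start, and in the OVA-mother library 3470, 3526 and 48102 bp. Rpl10l is a single exon of 1023 bp. CpG observed over expected around its start was 0.722, against 0.172 at Rpl3l and 0.55 at Rpl39l, and from 0.553 to 0.992 in members with a peak. Other paralogs were listed: Rps27l, a target of p53, had 30 and 22 fragments at the summit, and Rpl22l1, Rpl36al and Rpl7l1, which the naming rule leaves out, had start peaks in both lists.

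Rpl35, a protein of the 60S subunit near the exit of the peptide tunnel, was the one member with a start peak in a single list at the deposited threshold. In the PBS-mother library it had 2 start peaks, the better one with 39 fragments (27.7 to 53.3) at its summit. By −log10 p it stood above 79.9% of genes with a start peak, and by fold over background above 42%. Its nearest OVA-mother peak lay 30032 bp away. Its start is shared with Arpc5l, a subunit of the Arp2/3 complex on the opposite strand, so that the absence belongs to both genes. Among the 75-base stretches of one of its peaks in the PBS-mother library, 20% had an exact copy elsewhere in the genome.

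Of genes with a start peak in the PBS-mother library, 1 of 73 members had none in the OVA-mother library, against 17.9% of all coding genes. The same count was 16 of 75 for mitochondrial ribosomal protein genes, 5 of 49 for initiation factors, 6 of 29 for genes of ribosome biogenesis and 2 of 15 for the other genes of TOP mRNAs, where Eef1d and Eef1g, subunits of elongation factor 1, were without a peak. Over all genes the loss fell with the strength of the peak by −log10 p in the PBS-mother library, from 49.7% in the weakest of 4 bins of about equal size over 14.6% and 5.74% to 2.96% in the strongest. Members were spread over the bins as 7, 11, 29 and 26 genes, and the losses were 0, 0, 0 and 1. Thus 18 members lay in the weaker 2 bins and all of them had a start peak in both libraries. The peaks need not be the same: at Rps28 the OVA-mother peak did not overlap the best PBS-mother peak. Members have a median of 6 annotated starts against 3 over all genes, and the part of this number in the count was not tested. The count depends on the threshold: with a −log10 q of at least 5 required in both lists, 6 of 73 members were without an OVA-mother peak against 24.7% of all genes, and with at least 10 it was 48 of 67 against 70.2%. This comparison could not be tested with 1 library per group, and the exact intervals of the members' shares are wide.

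**Figure D1:**
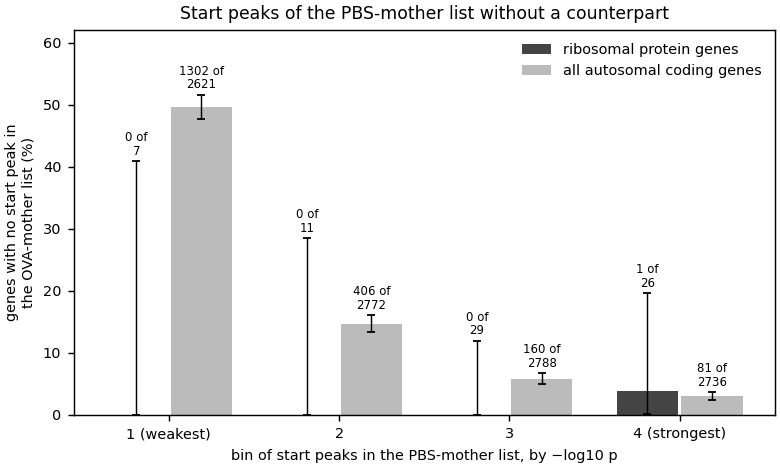
Percentage of genes with a start peak in the PBS-mother library that had none in the OVA-mother library, by bin of the peaks' −log10 p (1 weakest, 4 strongest), for the ribosomal protein genes (dark) and all autosomal coding genes (light). Lines are exact 95% intervals and labels give the counts. Of the members 0 of 7, 0 of 11, 0 of 29 and 1 of 26 were without a peak, against 49.7% of all genes in the weakest bin.

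Ribosomal protein genes that the rule leaves out for their place or symbol are given for comparison. The autosomal Rps3a1 and Fau and the X-linked Rps4x had start peaks in both lists, with 33, 31 and 26 fragments in the PBS-mother library and 16, 19 and 15 in the OVA-mother library. The X-linked Rpl39, Rpl10 and Rpl36a had 17, 14 and 12 fragments in the PBS-mother library, stood by −log10 p above 13.5%, 3.45% and 2.02% of autosomal genes, and had no start peak in the OVA-mother library. Offspring of both sexes entered the study, and how the sexes were shared between these libraries was not examined.

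The number of fragments at a summit was solved from the listed fold over background and −log10 p, assuming the MACS2 layout of columns, and came out whole for 100% of peaks within 0.2% of the −log10 p. Where a gene had several start peaks, that of the highest −log10 p was used. In the PBS-mother library the members ranged from 16 to 47 fragments with a median of 30, against 26 over all genes with a start peak. Their OVA-mother values ranged from 11 to 28 with a median of 17, which was also that of all genes. Between their quartiles the members spanned 27 to 34 and 15 to 20 fragments. By −log10 p the median member stood above 65.6% of genes with a start peak in the PBS-mother library (order-statistic 95% interval over members 62.1 to 72%). In the OVA-mother library it stood above 50.3% (39.6 to 61.5%). The genes ranked differ, with 10917 and 9100 holding a start peak, and the medians over all genes come from these different sets too. Genes weak in the PBS-mother library were more often without an OVA-mother peak. The part of this in the lower OVA-mother rank was not tested. The subunits were alike, with medians of 64.6% for the 40S and 66.7% for the 60S subunit in the PBS-mother library, and of 49.2% and 52.4% in the OVA-mother library.

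**Figure D2:**
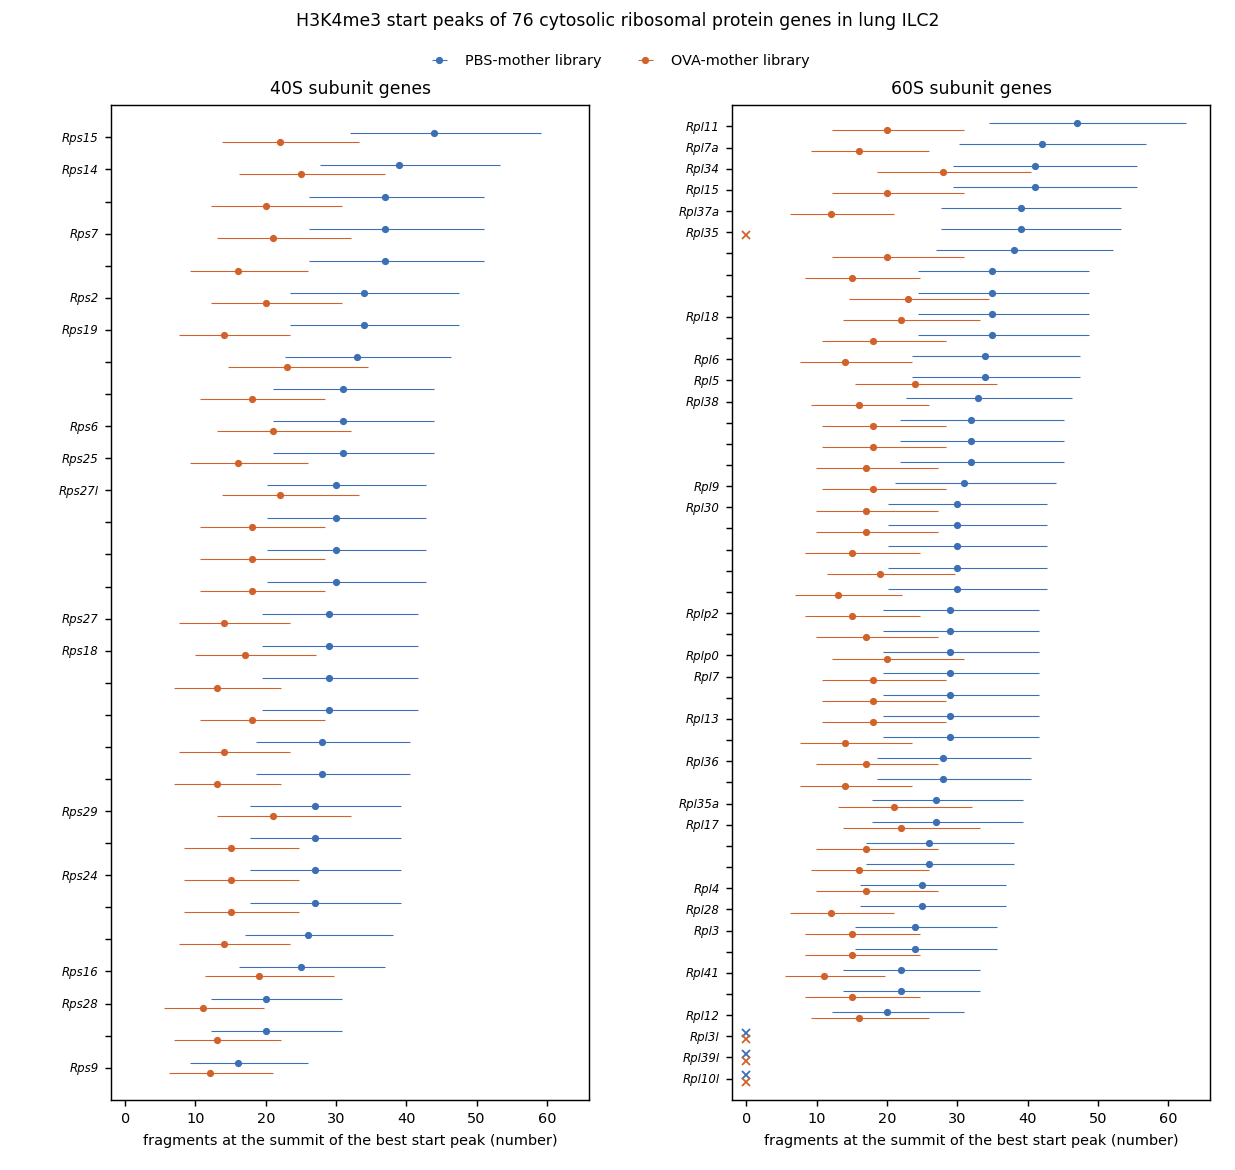
Number of fragments at the summit of the best start peak for each 40S gene (left) and 60S gene (right) in the PBS-mother library (blue) and the OVA-mother library (orange), ordered by the former. Lines are exact 95% Poisson intervals, which cover counting error only, and a cross at 0 marks a gene with no listed start peak. The genes the text describes are labelled. All 72 members with a peak in both lists sit lower in the OVA-mother library.

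The strongest peaks in the PBS-mother library were at Rpl11 and Rpl37a of the 60S and Rps15 of the 40S subunit. Rpl11, which binds Mdm2 when ribosome assembly is disturbed, had 47 fragments in the PBS-mother library and 20 in the OVA-mother library. Rpl37a had 39 and 12, and Rps15, which is needed for export of the small subunit, had 44 and 22. Rpl34 had 41 and 28 and Rps7, another Mdm2 binder, 37 and 21. In the OVA-mother library Rpl34 led the members with a −log10 p of 23.4, above 99.2% of genes. It was followed by Rpl5 (34 and 24 fragments), the partner of Rpl11 in the 5S particle, Rps14 (39 and 25), Rps29 (27 and 21) and Rpl17 (27 and 22). Rpl34 was thus the one gene among the 5 strongest of both lists.

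Among the weakest peaks in the PBS-mother library were those at Rps9 (16 fragments), Rpl12 (20), Rpl41 (22) and Rps28 (20), with folds over background from 4.56 to 5.89. In the OVA-mother library Rpl41 and Rps28 had 11 fragments each and Rpl28 had 12. Rpl41 encodes a peptide that is the smallest ribosomal protein. Rpl41 and Rps28 were among the 5 weakest in both lists. Over the 72 members with peaks in both, Spearman's rho of the fragments was 0.494 (0.515 over all 8968 coding genes with both). The points share each library's depth, and genes are not independent replicates.

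Summit fragments were fewer in the OVA-mother library at 72 of 72 members, but also at 97.3% of all genes with both peaks. The median ratio of OVA-mother to PBS-mother fragments was 0.574 (order-statistic 95% interval 0.55 to 0.607) for members and 0.611 for all genes. Divided by each list's smallest background, the ratios were 0.669 and 0.713, and the ratios of the folds were 0.8 and 0.832. The smallest peak widths, 190 bp in the PBS-mother library and 156 bp in the OVA-mother library, differed as well, and the part of fragment length in the ratio was not tested. The interval of a single member's ratio lay below 1 for 26 of 72, against 24.3% of all genes, and above 1 for none, against 0.0335%. The lowest ratios were at Rpl37a (0.308, 0.147 to 0.6), Rpl7a (42 and 16 fragments, 0.381), Rpl6 and Rps19 (34 and 14 each, 0.412) and Rpl11 (0.426). Rps19 is the gene most often mutated in Diamond-Blackfan anaemia. The highest were at Rpl17 (0.815, 0.442 to 1.49), Rpl12 (20 and 16, 0.8), Rps29 and Rpl35a (27 and 21 each, 0.778) and Rps16 (25 and 19, 0.76). The intervals of Rpl37a and Rpl17 overlap, so at this depth the order of members within the range is not firm. The other genes of TOP mRNAs had a median ratio of 0.649 (0.576 to 0.718) over 13 genes.

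The best start peaks of the members were a median of 603 bp wide in the PBS-mother library (556 to 664 bp), against 532 bp over all genes, and 340 bp in the OVA-mother library (302 to 382 bp), equal to the 340 bp of all genes. The widest in the PBS-mother library were at Rpl9 (1020 bp), Rps29 (1009 bp) and Rpl7 (985 bp), and in the OVA-mother library at Rpl13 (811 bp), Rpl36 (711 bp) and Rpl9 (653 bp). The peak was wider in the PBS-mother library at 69 of 72 members, against 92.1% of all genes. Best peaks of the lists overlapped at 68 of 72 members and at 90.7% of all genes with both. A single start peak was listed at 50 of 73 members in the PBS-mother library, against 71.6% of all genes with a start peak. There 20 members had 2, and Rpl3, Rpl18 and Rps14 had 3. In the OVA-mother library 54 of 72 members had 1, against 77.2% of all genes with a start peak. Of the members 16 had 2, and Rpl18 and Rps14 had 3.

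The position of the peaks depended on the start from which it was measured. From the nearest annotated start, the median summit of the members lay at 110 bp in the PBS-mother library (78 to 142 bp) and 112 bp in the OVA-mother library (90 to 135 bp), and that of all genes at 114 and 109 bp, with no shift. Members have a median of 6 annotated starts against 3, and the part of this number in the positions was not tested. The values that follow are from the principal start, a choice made after the data had been seen, and the difference in median summit position from all genes was found there and not from the nearest start. In the PBS-mother library the principal start lay inside a start peak at 10 of 73 members (13.7%, 6.77 to 23.8%), against 42% of all coding genes with a start peak. The OVA-mother library had it so at 2 of 72 (2.78%, 0.338 to 9.68%), against 18.4%. The 10 genes included Rpl4, Rpl9, Rpl30, Rplp2, Rps14, Rps25, Rps27l and Rps29, and the 2 were Rplp2 and Rps25. With the RefSeq start in place of the principal start the counts were 12 of 53 and 0 of 52 (all genes 42.6% and 17.9%), and with the 5′ end of the gene 10 of 73 and 3 of 72 (37% and 15.5%). Joining the start peaks of each gene to one stretch raised the shares to 37% and 15.3% of members and 55.8% and 28.9% of all genes. These counts were chosen after the profile of the peaks had been seen.

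The best peak of a member began a median of 51 bp and ended 699 bp downstream of the principal start in the PBS-mother library. Over all genes it began 8 bp upstream, at -8, and ended at 494 bp. The members' OVA-mother peaks ran from 110 to 492 bp, and those of all genes from 52 to 406 bp. At 50 bp upstream of the start, 5.48% of members with a start peak were covered in the PBS-mother library and 1.39% in the OVA-mother library, against 28.5% and 11.6% of all genes. Further upstream the PBS-mother values met, with 21.9% of members and 21.9% of all genes covered at -325 bp, while the OVA-mother values were 5.56% and 11.9%. At 450 bp downstream 91.8% and 56.9% were covered, against 55.1% and 37.2%. Measured from the principal start, the members' profile was low just before the start, rose after it and stayed high further into the gene in both libraries.

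**Figure D3:**
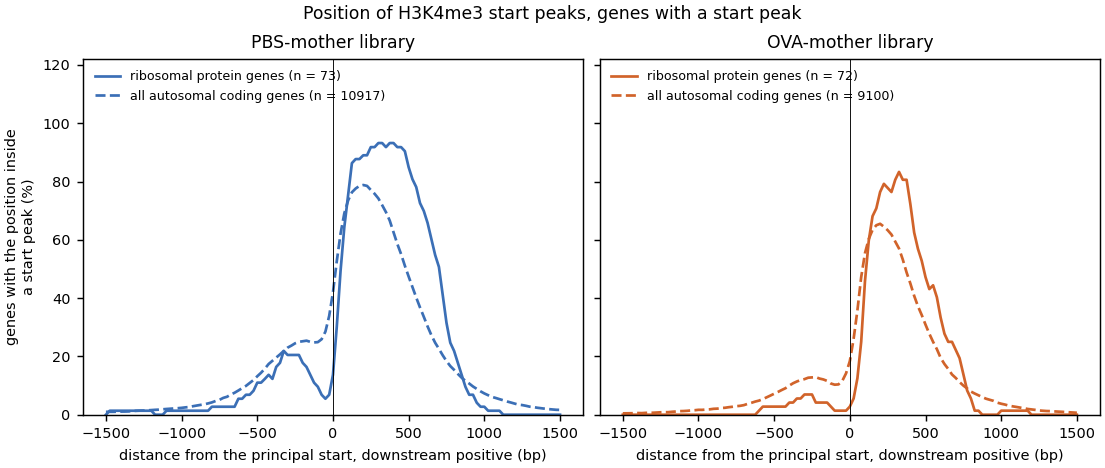
Percentage of genes with a start peak whose given position, in bp from the principal start with downstream positive, lay inside a start peak, for the PBS-mother library (left) and the OVA-mother library (right). Solid lines are the ribosomal protein genes and dashed lines all autosomal coding genes. At 450 bp downstream the solid line stands at 91.8% and 56.9% and the dashed line at 55.1% and 37.2%.

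The summit lay downstream of the principal start at 71 of 73 members and at 69 of 72, against 80.6% and 80.3% of all genes, at a median of 261 and 280 bp (196 and 200 bp over all). The summit lay downstream of the nearest start at 60 of 73 and 58 of 72 members. The share over all genes from that start is not given here, and median positions from it were like those of all genes. From the principal start, the summit's place in the gene was as follows. The summit fell in the first intron at 58 of 73 and 56 of 72 members (79.5% and 77.8%), against 40.8% and 41.7% of all genes. It fell in the first exon at Rpl30 in the PBS-mother library and at Rpl30 and Rplp2 in the OVA-mother library, against 35.3% and 33.9% of all. The first exon of members is short, with a median of 94.5 bp against 213 bp. Among genes with a first exon of at most 100 bp, the summit was in the first intron at 36 of 42 members and 63.5% of all genes in the PBS-mother library, and at 36 of 42 and 61.8% in the OVA-mother library. Among the same genes, the start was covered at 6 of 42 members and 47.1% of all, and at 0 of 42 and 20.9%. In the strongest bin of peaks it was covered at 4 of 26 members and 49.4% of all in the PBS-mother library, and at 0 of 18 and 21.2% in the OVA-mother library.

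The place of the peak was set beside those of other gene groups. The groups are not separate, as Eif3e, Eif3f, Eif3h and Eif4b are both genes of TOP mRNAs and initiation factors. Eif6 is in both the initiation factors and the genes of ribosome biogenesis. The other genes of TOP mRNAs had the start covered at 1 of 15 in the PBS-mother library, at Eif3f. In the OVA-mother library it was 0 of 13 (up to 24.7% by the exact interval). Initiation factors had it covered at 15 of 49 and 4 of 44, genes of ribosome biogenesis at 9 of 29 and 4 of 23, and mitochondrial ribosomal protein genes at 36 of 75 and 6 of 59. The exact intervals of the cytosolic and mitochondrial ribosomal protein genes did not overlap in the PBS-mother library (6.77 to 23.8% and 36.3 to 59.8%) and overlapped in the OVA-mother library (0.338 to 9.68% and 3.82 to 20.8%). These intervals cover counting error over genes, which are not replicates.

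**Figure D4:**
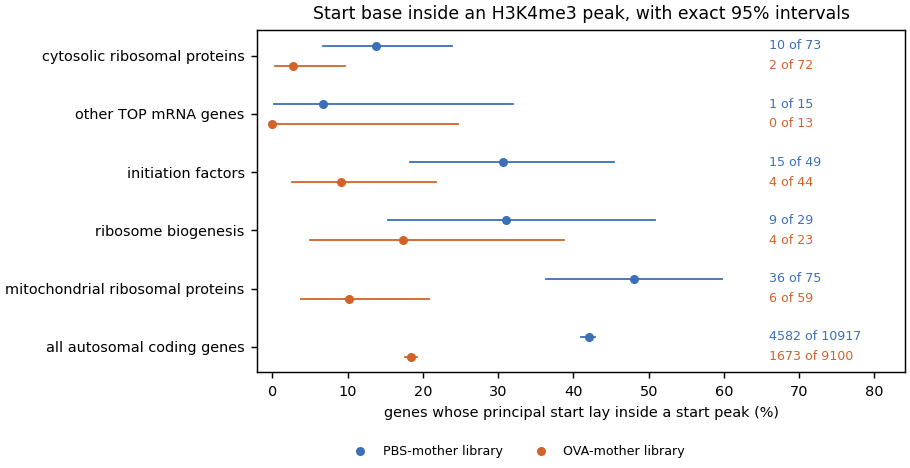
Percentage of genes whose principal start lay inside a start peak, among genes with a start peak, for 6 gene groups in the PBS-mother library (blue) and the OVA-mother library (orange). Points are shares, lines exact 95% intervals, and counts stand at the right. Some genes are counted in several groups. The cytosolic ribosomal protein genes stand at 13.7% and 2.78% and all autosomal coding genes at 42% and 18.4%.

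Some summits lay outside this pattern. Those of Rps18 lay upstream at -534 and -554 bp, on the side of its neighbour Vps52, and that of Rpl7 at -536 bp in the PBS-mother library. The summit of Rps28 lay at -260 bp in the OVA-mother library, on the side of Ndufa7. Those of Rpl18, at 2835 and 2946 bp, and that of Rps24 in the OVA-mother library, at -3789 bp, were near other annotated starts. In all, 18 members had the start of another coding gene within 1000 bp, 17 of them on the opposite strand. Without these 18, the principal start was covered at 6 of 55 members in the PBS-mother library and 1 of 55 in the OVA-mother library.

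A snoRNA gene lay inside 27 of the 76 members, 54 in all and 5 in Rpl4, against 1.26% of all coding genes. The start peaks of hosts and other members stood alike, with median percentiles of 65.6 and 65.7% in the PBS-mother library and 48.7 and 52.4% in the OVA-mother library, and with a median of 30 fragments for both in the former and 17 in the latter.

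Because ribosomal protein genes have many processed copies, the 75 bases around each summit were searched for exact copies on the 21 assembled chromosomes. Such a copy existed for 1 of 73 members in the PBS-mother library (Rplp0, 2 copies) and 1 of 72 in the OVA-mother library (Rps2, 18 copies), against 2.83% and 4.11% of all genes with a start peak. Of all 75-base stretches under members' start peaks, 3.95% and 3.93% had one. At Rps2 the best peak of the OVA-mother library, 1080 bp downstream in exon 4, was made wholly of such stretches, and its 20 fragments cannot be assigned to this gene alone. Annotated pseudogenes of ribosomal proteins were taken by a symbol ending in -ps and digits, and those with other symbols were not examined. Of the 289 taken, 0 held a peak in the PBS-mother library. This allows a share of up to 1.04% by a limit of 3 counts (exact 95% upper limit 1.27%). In the OVA-mother library 2 held one (0.692%, 0.0839 to 2.48%).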

How the data were processed

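H3K4me3 CATCH-seq peak lists of 2 libraries, 1 per group, were used. The authors trimmed reads with Trim Galore and Cutadapt, aligned them to mm10 with Bowtie 2 and removed duplicates with Sambamba. Some lysate was kept as input. The paper names no caller or threshold for these lists, and its reporting summary says that no peaks were called. The deposited lists hold a score, a fold over background (a ratio), a −log10 p-value and a −log10 q-value per peak, none scaled between libraries. The smallest −log10 q was 2.02 and 2.01.

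GENCODE vM21 starts on GRCm38 were used. The principal start is that of the transcript with the best APPRIS and support level. Per gene and list the start peak with the highest −log10 p was kept. As no caller is named, the columns were assumed to follow the MACS2 narrowPeak layout. On that assumption the fragments and background were solved from fold and p, taking a Poisson background with 1 added to both and no control. The solution was accepted within 0.2% of the −log10 p, and tested on simulated data. The deposited lists give no read totals. Shares have exact 95% Clopper-Pearson intervals and ratios exact binomial ones, which cover counting error only. Genes were named by rule: the 5 strongest and 5 weakest members per list, those with a peak in one list or neither, the 5 lowest and 5 highest ratios, the 3 widest peaks per list, the paralogs and the genes outside the naming rule. Others (genes with a covered start, outlying summits, copies, members with 3 peaks, printed sequences, Eef1d, Eef1g) were chosen after their values were seen. The members and lists were chosen with earlier results of these data known. The lists were read with Python 3.11.15, NumPy 2.4.6, pandas 2.3.3, SciPy 1.17.1, numba 0.67.0 and matplotlib 3.10.9. Alternatives in distance, starts, threshold, members, overlap and ranking were computed. Sequences came from RefSeq (GRCm38.p6). The other data of the study were not used here. A few genes that the naming rule would name are not reported here.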

Additional observations from a re-analysis of the deposited data

Results flagged for a closer look

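Peaks at processed copies lie outside the comparisons of the report. In the OVA-mother library the pseudogene Rps2-ps10 on chromosome 18 held a peak with 22 fragments at its summit, and Rps2-ps13 on X one with 16 fragments, while neither had a peak in the PBS-mother library. The 75 bases around these summits had 16 and 17 exact copies elsewhere in the genome, and their place of origin cannot be told apart from the other copies. With 1 library per group, outlying samples and differences between groups were not tested.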

How the results depend on the processing

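No paired analysis was possible because each condition had a single library, and no library could be left out. Of the alternatives, 33 took a value outside the 95% interval of the reported one, or a count by over 1.5 times, and 82 gave a value within that limit. Requiring a −log10 q of at least 10 gave start peaks at 88.2% and 25% of members (PBS-mother and OVA-mother), 48 members with a peak in the PBS-mother library alone, a median percentile of 56.4 there, a ratio of 0.657, and for the OVA-mother library a width of 406 bp and a nearest-start position of 136 bp. At least 5 gave 6 members with a peak in the PBS-mother list alone. Without paralogs (Rpl3l, Rpl10l, Rpl39l, Rps27l) the shares were 100% and 98.6%. With the genes outside the rule 4 members, and without those next to another coding start 0, were in the PBS-mother list alone. An overlap of 50% of both peaks left 60.3% and 59.7% shared, from 97.3% and 98.6%. Joined peaks were 722 and 414 bp wide. Ranked by fold or width, the percentile in the PBS-mother library was 59.1 and 61. From the nearest start the median summits lay at 110 and 112 bp, like those of all genes (114 and 109 bp), so the difference in position is lost under that choice, and from the gene 5′ end at 272 and 280 bp. A pyrimidine run was found in 96.1% of members with at least 4 pyrimidines, 68.4% with at least 8, 69.7% within 5 bp and 94.7% within 25 bp of a start.

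The following were chosen after seeing the data. The ratio was 0.669 over the smallest background and 0.8 by folds. From the principal start the summits lay at 261 and 280 bp. With the principal start alone 39.5% held a run. With a gene's start peaks joined, the principal start was covered at 37% and 15.3% of members (55.8% and 28.9% of all genes), and in the OVA-mother library 0% of RefSeq starts, and 0% of principal starts at a −log10 q of at least 10, were covered. Members had fewer covered starts than all genes under each of these settings. The number of fragments, at most 47 at a summit, limits the order of single members.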
